A study of Mus musculus with 2 samples.

Results

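The genes described here are 5 enzymes of skin-barrier lipid chemistry and fatty-acid oxygenation: Elovl4, Cers3, Alox12b, Aloxe3 and Alox15. They were chosen by symbol from the 27998 genes of the count tables, and each was described across cells binned by the summed level of the suprabasal oral keratins Krt4 and Krt13. The cells came from the buccal mucosa, the lining of the cheek, of 12-week-old C57BL/6 female mice. Tissue of 10 mice was pooled and dissociated, cells with a high surface level of CD104 (β4-integrin, the hemidesmosome chain that marks basal cells) were sorted, and the suspension was divided into 2 technical replicates for 10x Chromium droplet sequencing. They are called library 1 and library 2, and they make 1 independent sample. No genotype, treatment or disease group was labelled, so every comparison is between cells of this one population, and no significance test was made.

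The outer barrier of keratinising epithelia is a lipid layer bound to dead, cornified cells, and in mice the oral lining keratinises. ELOVL4 lengthens fatty acids to ultra-long chains, and CERS3 joins such chains to a sphingoid base to give the ceramides of that layer. ALOX12B oxygenates the linoleate carried by these ceramides and ALOXE3 isomerises the product, a step needed in the epidermis before ceramide is attached to the cornified envelope. ALOX15 is a lipoxygenase that acts on free and membrane fatty acids, best known from macrophages and eosinophils and also expressed in some epithelia.

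On GRCm38, Elovl4 (ENSMUSG00000032262) lies at chr9:83778692-83806277 on the minus strand and Cers3 (ENSMUSG00000030510) at chr7:66743504-66823691 on the plus strand. All 3 lipoxygenase genes are on chromosome 11. Aloxe3 (ENSMUSG00000020892, chr11:69125896-69149115) and Alox12b (ENSMUSG00000032807, chr11:69156989-69169792) are plus-strand neighbours with 7873 bases between them. Alox15 (ENSMUSG00000018924, chr11:70344152-70352031, minus strand) lies 1174359 bases from Alox12b, with Alox12e, another lipoxygenase gene, 21523 bases from it. All 5 are annotated as protein-coding in GENCODE M21.

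RefSeq promoter windows (GRCm38.p6, 250 bases before to 50 after the annotated start) were matched for 3 of the genes, Elovl4, Cers3 and Alox12b. They are printed because these genes were all higher in the cells that hold cornified transcripts, as given below. Capitals mark GGGCGG (GC box) or CACGTG (E-box) on either strand.
Elovl4 promoter, chr9:83806256-83806555, minus strand: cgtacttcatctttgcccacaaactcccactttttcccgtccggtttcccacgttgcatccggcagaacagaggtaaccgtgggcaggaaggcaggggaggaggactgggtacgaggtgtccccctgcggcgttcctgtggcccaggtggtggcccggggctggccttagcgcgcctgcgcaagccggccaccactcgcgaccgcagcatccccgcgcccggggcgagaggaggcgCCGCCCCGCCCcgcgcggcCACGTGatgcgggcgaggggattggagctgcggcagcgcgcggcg
Cers3 promoter, chr7:66743254-66743553, plus strand: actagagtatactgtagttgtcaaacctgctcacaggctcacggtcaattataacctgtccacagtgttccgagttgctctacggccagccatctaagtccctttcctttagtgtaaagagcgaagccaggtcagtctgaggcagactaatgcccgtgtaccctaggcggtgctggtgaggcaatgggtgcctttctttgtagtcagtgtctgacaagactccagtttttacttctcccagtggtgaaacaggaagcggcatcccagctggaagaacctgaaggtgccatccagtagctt
Alox12b promoter, chr11:69156822-69157121, plus strand: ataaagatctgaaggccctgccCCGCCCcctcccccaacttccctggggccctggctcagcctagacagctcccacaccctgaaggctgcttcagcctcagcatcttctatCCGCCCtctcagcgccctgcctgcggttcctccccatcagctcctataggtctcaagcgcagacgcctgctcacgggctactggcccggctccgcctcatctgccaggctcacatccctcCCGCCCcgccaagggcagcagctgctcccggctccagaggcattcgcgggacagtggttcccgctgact

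The Elovl4 window held 2 GC boxes at positions 237 and 242, counted from 1 at its 5′ end, and an E-box at position 256. The Alox12b window held 3 GC boxes, at positions 23, 112 and 232, and the Cers3 window held neither motif. GC content was 71% for Elovl4, 66% for Alox12b and 50.7% for Cers3, against a median of 52.7% over 27025 windows, of which 35.9% hold a GC box and 7.24% an E-box. None of the 3 windows holds AACCNGTT (GRHL, 2.01% of all windows), TGANTCA (AP-1, 7.93%) or TATAAA (14.2%), all searched on both strands. The 3 genes thus share no match among these motifs.

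Cells with 500 or more genes and no more than 10% mitochondrial UMIs entered the bins, 15470 of the 16291 barcodes (6907 from library 1, 8563 from library 2). A UMI is a unique molecular identifier, which counts captured transcripts. The low bin (Krt4+Krt13 under 80 UMIs per 10000) held 3517 and 4098 cells, the middle bin (80 to 350) 1936 and 2409, and the high bin (350 and over) 1454 and 2056 cells in libraries 1 and 2. Against the sort for basal cells, 8 basal keratinocyte markers summed to 1853 and 2094 CPM (UMIs of a bin scaled to a total of 1000000) in the high bin and to 15440 and 15484 CPM in the low bin. Median depth was also higher in the high bin, 14725.5 and 11984.5 UMIs per cell, against 6468 and 5390 in the low bin, so shares of cells with a UMI are given after thinning every cell to 3000 UMIs as well. A set of 96 kept barcodes occurred in both libraries. The libraries are given one after the other throughout, library 1 first, and levels are CPM of UMIs summed over the cells of a bin. Per-cell means of UMIs per 10000 give the level per cell where stated.

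All 5 genes were higher in the high Krt4+Krt13 bin than in the low bin, and they differed widely in how much. Elovl4, Alox12b and Aloxe3 stood about 15- to 37-fold higher, Alox15 about 10-fold and Cers3 about 2-fold. A gene passed the size rule when it differed by 1.5-fold or more, one way, in each library and averaged 5 CPM or more. All 5 passed it as higher, against 8.65% of 9019 genes measured that passed as higher and 45.8% that passed either way. The median log2 ratio over all measured genes was -0.42. The plot of levels by bin shows each gene in the 3 bins.

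**Figure D1:**
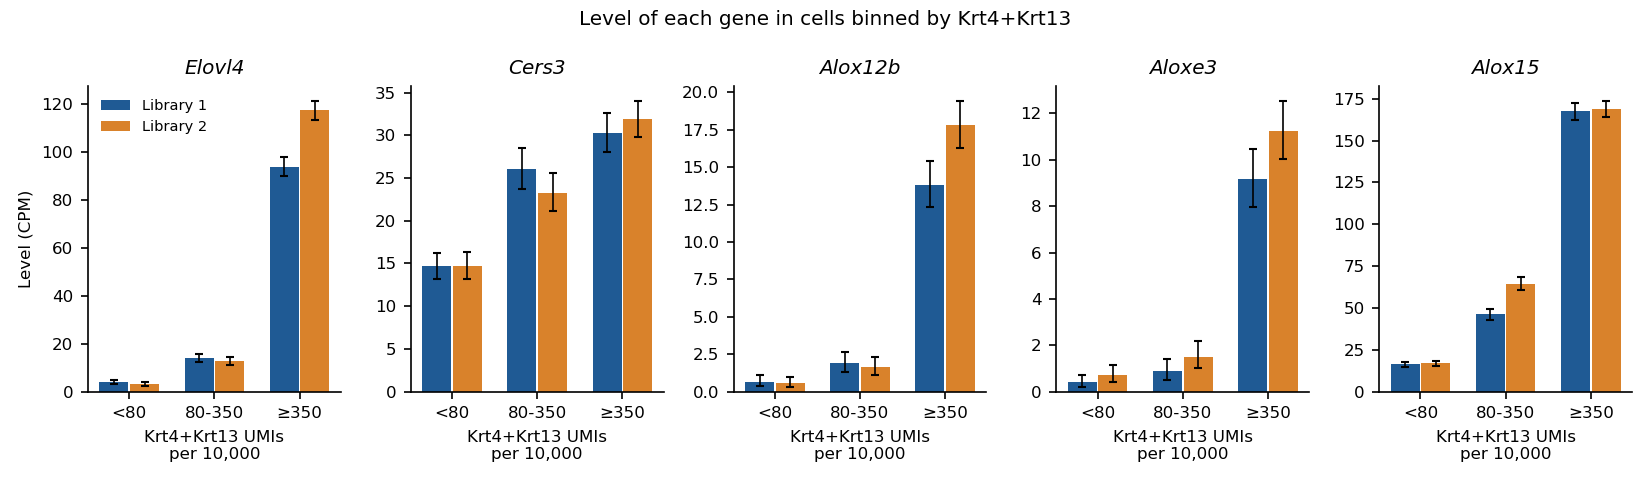
Level of each gene (y axis, CPM of UMIs summed over cells, linear from 0, each panel on its own scale) in the 3 Krt4+Krt13 bins (x axis, UMIs per 10000 per cell), with bars for library 1 and library 2 and error bars for exact 95% Poisson intervals. All 5 genes are lowest in the low bin, and Cers3 is 30.3 and 31.9 CPM in the high bin against 14.7 in both libraries in the low bin.

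Elovl4, the elongase, was at 93.9 and 117 CPM in the high bin, against 3.94 and 3.15 CPM in the low bin. The middle bin held 13.9 and 12.8 CPM, so the libraries gave the same order of bins. High over low was 23.8-fold and 37.2-fold (log2 4.58, 95% interval 4.28 to 4.88, and 5.22, 4.89 to 5.56). The intervals here and below cover counting error only. Per cell, the mean was 0.771 and 0.930 UMIs per 10000 in the high bin against 0.0367 and 0.0294 in the low bin. In finer bins of library 1 the level went through 8.52 (under 20), 3.44 (20 to 80), 6.27 (80 to 200), 25.1 (200 to 350), 41.2 (350 to 500), 65.0 (500 to 700) and 150 CPM (700 and over). From 20 upward the level was higher in each further bin, in library 2 as well. Close to the upper threshold, cells at 350 to 370 had 34.4 and 34.8 CPM and cells at 330 to 350 had 31.6 and 23.5 CPM. After thinning, 18.8% and 22.3% of high-bin cells had a UMI of Elovl4, against 0.967% and 0.903% of low-bin cells (unthinned, 53.2% and 53.6% against 2.36% and 1.61%). Among cells with immune markers, which should lack the gene, thinned Elovl4 was found in 1 of 25 in library 1 and 0 of 39 in library 2, which allows a share of up to 7.69%. Their median depth was 8025 and 7782 UMIs.

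Cers3, the ceramide synthase for ultra-long chains, was the member with the smallest difference. It had 30.3 and 31.9 CPM in the high bin against 14.7 CPM in both libraries in the low bin, 2.06-fold and 2.17-fold (log2 1.05, 0.86 to 1.23, and 1.12, 0.94 to 1.30). The middle bin was at 26.0 and 23.3 CPM, and the high bin was 1.16-fold and 1.37-fold above it, within the size rule. In the finer bins of library 1 it was at 24.6, 28.1, 26.4 and 26.8 CPM over the 4 bins from 80 to 700, and at 35.7 CPM at 700 and over. Its level was thus nearly flat between those values. Cells at 80 to 100 had 25.2 and 17.6 CPM and cells at 60 to 80 had 16.5 and 18.7 CPM, so no step at the threshold itself was seen in library 2. Thinned shares were 8.60% and 8.80% in the high bin against 4.69% and 4.56% in the low bin (unthinned, 35.9% and 32.3% against 9.70% and 8.49%). Thinned Cers3 was found in 1 of 25 and 1 of 39 (2.56%) immune-marker cells, so a share in the low bin cannot be told apart from background by this measure. Fold changes of Cers3 also depend on scaling. Scaling by the median of ratios moves the median of all genes by 0.53 on the log2 scale in the comparison of the high with the low bin, and gives Cers3 a log2 of 1.60 there. In the high against the middle bin that shift is 0.37, and Cers3 passes the rule with 0.70.

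The paired epidermal lipoxygenases, Alox12b and Aloxe3, had most of their UMIs in the high bin. Alox12b had 13.8 and 17.8 CPM there (320 and 493 UMIs), against 0.676 and 0.566 CPM in the low bin (17 and 14 UMIs), with log2 ratios of 4.35 (3.65 to 5.15) and 4.98 (4.22 to 5.86). Aloxe3 had 9.16 and 11.2 CPM in the high bin (212 and 311 UMIs), against 0.398 and 0.727 CPM in the low bin (10 and 18 UMIs), with log2 ratios of 4.53 (3.62 to 5.61) and 3.95 (3.27 to 4.72). The call for Aloxe3 was lost to the 5 CPM mean in library 1 alone, with bin edges of 60 and 250, with a mean over cells, with thinned cells, and without the 5% of cells with most UMIs or the cell richest in it, with mean log2 ratios no lower than 3.404. In both genes the high bin held 86.0% to 91.6% of the UMIs, from 21.1% and 24.01% of the cells. Their levels were highest at the top of the keratin range. Alox12b was at 28.4 and 34.9 CPM in cells at 700 and over, and at 5.198 and 5.404 CPM in cells at 500 to 700. Aloxe3 was at 16.2 and 21.9 CPM in cells at 700 and over, against 5.198 and 3.152 CPM at 500 to 700. After thinning, 2.48% and 1.95% of high-bin cells had an Alox12b UMI against 0.142% and 0.146% of low-bin cells, and 2.27% and 1.85% had one of Aloxe3 against 0.114% and 0.268%. Unthinned, 7.57% and 7.88% of high-bin cells had one of Alox12b and 9.15% and 8.12% one of Aloxe3. No thinned immune-marker cell held either transcript, 0 of 25 and 0 of 39, which allows up to 12.0% and 7.69%, limits above all of these thinned shares, so the immune-marker cells cannot set a background for either gene.

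Alox15 was spread over more bins. It had 16.3 and 16.9 CPM in the low bin, 46.1 and 64.6 CPM in the middle bin and 167 and 169 CPM in the high bin. High over low was 10.2-fold and 9.99-fold (log2 3.36, 3.21 to 3.51, and 3.32, 3.18 to 3.47). After thinning, 14.6% and 14.3% of high-bin cells had an Alox15 UMI, against 2.47% and 2.68% of low-bin cells (unthinned, 26.1% and 24.9% against 4.83% and 4.71%). In immune-marker cells the thinned share was 1 of 25 and 4 of 39 (10.3%), so the low-bin share lies at or below it. ALOX15 is known from immune cells, so these cells cannot set a background for it. Single cells held up to 122 and 141 Alox15 UMIs.

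Between the middle and low bins, 3 genes passed the rule as higher: Elovl4 (log2 1.82 and 2.02), Cers3 (0.83 and 0.66) and Alox15 (1.497 and 1.93), against 4.08% of genes measured that passed as higher, 9.88% as lower and 14.0% either way. Alox12b (1.51 and 1.52) and Aloxe3 (1.15 and 1.06) lay under the 5 CPM mean, with 35 and 31 and 16 and 29 UMIs in the middle bin. Between the high and middle bins, 4 genes passed as higher, against 4.40% of genes that passed as higher and 25.7% that passed either way. They were Elovl4 (2.76 and 3.201), Alox12b (2.85 and 3.46), Aloxe3 (3.38 and 2.89) and Alox15 (1.86 and 1.39). Cers3 in both libraries, and Alox15 in library 2, had the larger ratio at the lower step. Cycling cells made up 46.2% and 51.1% of the low bin, 37.8% and 40.0% of the middle bin and 3.71% and 4.04% of the high bin. Without cycling cells all 5 genes still passed as higher in the high than in the low bin. A split of each bin by cycling was added after seeing the data. In the middle bin 2 genes were lower in cycling cells, against 2.50% of genes measured that passed as lower, 8.98% as higher and 11.5% either way. Elovl4 had 4.97 and 8.10 CPM in cycling cells against 20.9 and 16.9 CPM in the remaining cells, and Alox15 had 30.8 and 44.0 CPM against 58.3 and 82.9 CPM. Alox12b and Aloxe3 lay under the 5 CPM mean there. None of the 5 passed in the high bin (7.82% higher, 0.809% lower, 8.63% either way), where all 5 were measured. In the low bin (8.99% of genes higher, 4.08% lower, 13.1% either way) only Cers3 and Alox15 reached the 5 CPM mean, and neither passed. Elovl4, under that mean, was at 2.50 and 2.24 CPM in cycling cells of the low bin against 5.54 and 4.39 CPM in the remaining cells (log2 -1.15 and -0.97).

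Within the high bin, cells were split by cornified-layer transcripts. A summed level of Cnfn, Lor, Sprr3 and Crct1 of at least 5 UMIs per 10000 marked 108 and 156 cells, and the remaining 1346 and 1900 cells lay below it. In the cornified-gene cells, 4 of the 5 genes were higher, Alox12b by 26.0-fold and 24.1-fold and Aloxe3 by 8.59-fold and 13.4-fold, while Alox15 was at 0.745 and 0.317 of its level in the remaining cells. Over all genes measured, 5.34% passed as higher, 9.65% as lower and 15.0% either way. The median log2 over all measured genes was -0.18. Median Krt4+Krt13 was also higher in cornified-gene cells, 937 and 946 UMIs per 10000 against 573 and 578 in the remaining cells. The part of this keratin difference in the ratios was not tested. The plot of log2 ratios sets the 5 comparisons side by side.

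**Figure D2:**
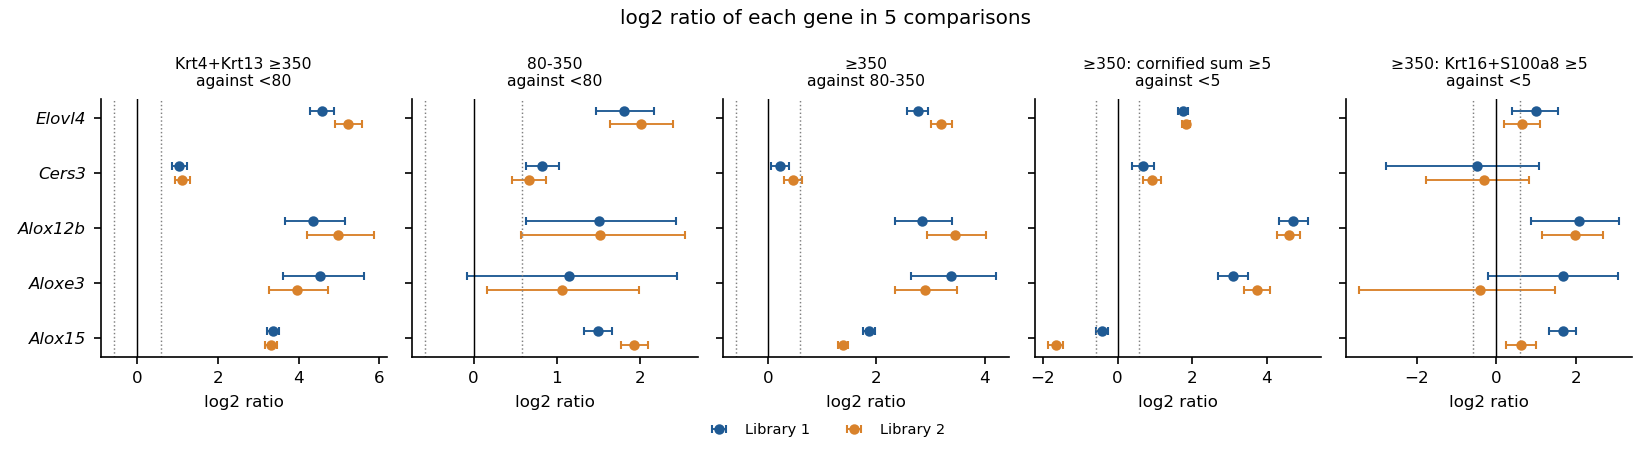
log2 ratio (x axis) of each gene (y axis) in 5 comparisons between bins or classes of cells, for library 1 and library 2, with exact conditional 95% intervals as error bars. Dotted lines mark 1.5-fold, and in the cornified split Alox12b lies at 4.70 and 4.59 while Alox15 lies at -0.42 and -1.66.

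Alox12b had 92.6 and 114 CPM in cornified-gene cells (247 and 378 UMIs), against 3.57 and 4.72 CPM in the remaining high-bin cells (73 and 115 UMIs). The log2 ratios were 4.70 (4.32 to 5.10) and 4.59 (4.28 to 4.90). The class made up 1.56% and 1.82% of kept cells and held 66.4% and 70.3% of all Alox12b UMIs. After thinning, 23.1% and 16.03% of cornified-gene cells had an Alox12b UMI, against 0.817% and 0.789% of the remaining cells (unthinned, 58.3% and 55.8% against 3.49% and 3.95%). Aloxe3 had 42.0 and 60.4 CPM against 4.89 and 4.52 CPM, with log2 ratios of 3.103 (2.70 to 3.51) and 3.74 (3.399 to 4.09), and thinned shares of 11.1% and 9.62% against 1.56% and 1.21%. One cell of library 2, with 45062 UMIs in all, held 40 UMIs of Alox12b and 38 of Aloxe3. Without the cell richest in each gene, the log2 ratios were 4.63 and 4.45 for Alox12b and 3.04 and 3.46 for Aloxe3. Median depth was 25182 and 18039 UMIs in cornified-gene cells and 14294.5 and 11680 in the remaining cells. A list of stress keratins and alarmins also summed to 2666 and 3358 CPM in cornified-gene cells against 1307 and 1214 CPM in the remaining cells, and its part in these results was not tested.

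Elovl4 had 249 and 322 CPM in cornified-gene cells, against 73.6 and 89.5 CPM in the remaining high-bin cells, with log2 ratios of 1.76 (1.63 to 1.89) and 1.85 (1.74 to 1.95). Thinned shares were 40.7% and 54.5% against 17.1% and 19.6%. Cers3 had 45.4 and 54.4 CPM against 28.3 and 28.8 CPM, with log2 ratios of 0.68 (0.38 to 0.96) and 0.92 (0.67 to 1.15). Its thinned shares, 12.0% and 10.3% against 8.32% and 8.68%, lay closer together, and the ratio computed from thinned cells fell short of the rule (0.43), as it did without the 5% of cells with most UMIs (0.42).

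Alox15 ran the other way in library 2 and less so in library 1. It had 129 and 58.3 CPM in cornified-gene cells, against 172 and 184 CPM in the remaining cells, with log2 ratios of -0.42 (-0.59 to -0.26) and -1.66 (-1.87 to -1.45). Library 1 lay within the rule, so no call was made. There, 1 cell held 102 of the 343 Alox15 UMIs of the class. Without the cornified-gene cell richest in Alox15 the ratios were -0.90 and -1.95, which passed the rule as lower. This alternative was chosen after seeing the data, and it left out a cell of the cornified-gene class only. The remaining cells kept their richest cells, with 122 and 141 Alox15 UMIs. A lower ratio was therefore favoured by construction, and no call is drawn from it. Library 2 alone also passed, as did the mean with a class threshold of 3 (-1.19). The thinned shares were 8.33% and 12.8% in cornified-gene cells, against 15.2% and 14.5% in the remaining cells.

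Along the cornified sum itself, in high-bin cells with little Krt16 and S100a8, Alox12b was at 1.56, 3.32, 15.3, 55.6 and 168 CPM in library 1 (0, above 0 to 2, 2 to 5, 5 to 20, and 20 or more UMIs per 10000). Library 2 had 1.05, 3.78, 19.2, 46.3 and 182 CPM in the same 5 classes. Aloxe3 was at 2.54 and 2.19 CPM at 0 and at 75.7 and 96.9 CPM in the top class, which held 35 and 64 cells. At 2 to 5 Aloxe3 was at 15.9 and 12.5 CPM. Both lipoxygenases were therefore already higher below the threshold of 5 than in cells with none of these transcripts. Elovl4 had 291 and 414 CPM in the top class and 52.5 and 66.8 CPM at 0, with each class above the one before it. Cers3 had 60.5 and 74.1 CPM in the top class and between 25.1 and 39.5 CPM in all lower classes of both libraries. Alox15 was at 46.6 and 28.4 CPM in the top class, the lowest of its 5 classes in each library. At the threshold, cells at 5 to 6 had 20.8 and 31.2 CPM of Alox12b and cells at 4 to 5 had 35.5 and 32.1 CPM, in 14 and 16 and in 21 and 31 cells.

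**Figure D3:**
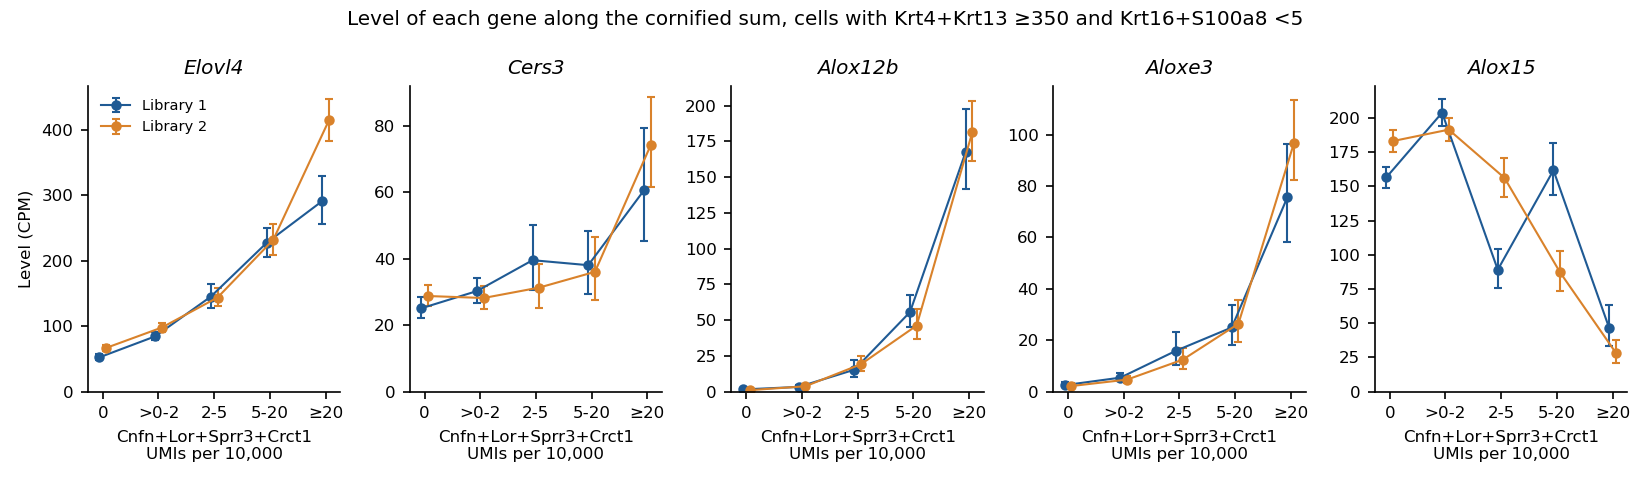
Level of each gene (y axis, CPM, linear from 0, each panel on its own scale) against the summed level of Cnfn, Lor, Sprr3 and Crct1 (x axis, 5 classes of UMIs per 10000) in high-bin cells with Krt16+S100a8 under 5, for library 1 and library 2, with exact 95% Poisson intervals. Alox12b reaches 168 and 182 CPM and Aloxe3 75.7 and 96.9 CPM in the top class, where Alox15 is at 46.6 and 28.4 CPM.

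For Alox12b, Aloxe3 and Elovl4 the association with cornified transcripts was also seen outside the high bin, in a comparison added after seeing the data. In the middle bin 24 and 37 cells held a cornified sum of at least 5. Their Alox12b level was 51.1 and 53.9 CPM (16 and 15 UMIs), against 1.06 and 0.849 CPM in the remaining middle-bin cells. Aloxe3 was at 22.4 and 25.2 CPM (7 UMIs in each library) against 0.504 and 1.17 CPM. Elovl4 was at 147 and 122 CPM against 11.5 and 11.1 CPM. In library 1, 25 of the 46 Elovl4 UMIs came from 1 cell, and in library 2, 6 of the 15 Alox12b UMIs did. Without the cell richest in each gene, the levels in cornified-gene cells were 77.5 and 95.5 CPM for Elovl4 (log2 2.75 and 3.099) and 40.6 and 34.4 CPM for Alox12b (5.26 and 5.34), and the log2 ratios of Aloxe3 were 5.01 and 4.25. The mean Krt16+S100a8 sum was also higher in these cells, 28.2 and 24.3 UMIs per 10000 against 0.329 and 0.539 in the remaining middle-bin cells. So was median Krt4+Krt13, at 259 and 247 UMIs per 10000 against 165 in the remaining cells of each library. The part of both in the result was not tested. Elovl4, Alox12b and Aloxe3 passed the rule as higher, against 6.15% of genes measured that passed as higher, 9.73% as lower and 15.9% either way. Cers3 (log2 0.15 and 1.03) and Alox15 (3.25 and -0.08) did not pass. Alox15 was at 383 and 61.1 CPM in these cells against 40.2 and 64.6 CPM. In library 1, 87 of its 120 UMIs came from 1 cell. After thinning, 3 of 1454 and 6 of 2056 high-bin cells held both Alox12b and Aloxe3, where the product of the separate shares gives 0.817 and 0.739 cells. Within cornified-gene cells the count was 2 and 5 against a product of 2.78 and 2.40, too few to read either way.

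The second split of the high bin, by Krt16 and S100a8, a wound keratin and an alarmin, rested on 7 and 13 cells with a sum of at least 5 against 1447 and 2043 cells below it. In those cells Alox15 had 525 and 260 CPM (73 and 61 UMIs), against 165 and 168 CPM. Alox12b had 57.6 and 68.3 CPM (8 and 16 UMIs) against 13.6 and 17.4 CPM, and Elovl4 had 187 and 184 CPM (26 and 43 UMIs) against 93.3 and 117 CPM. These 3 passed the rule as higher (log2 1.67 and 0.63, 2.09 and 1.97, and 1.004 and 0.65), against 10.7% of genes measured that passed as higher, 5.76% as lower and 16.4% either way, and a sum of 0 was set to 3 UMIs, which can itself pass the rule in bins this small. Of the 73 Alox15 UMIs in library 1, 55 came from 1 cell. Without the cell richest in each gene, the ratios were 0.27 and 0.07 for Alox15, 0.22 and 0.47 for Elovl4 and 1.002 and 1.35 for Alox12b. Of these 3 only Alox12b still passed, on very few cells. In library 1 its 8 UMIs came from 2 cells, 5 of them from 1 cell. Over both libraries, 12 of its 24 UMIs lay in the 5 cells that also held cornified transcripts, and their part was not tested. Cers3 (3 and 6 UMIs) and Aloxe3 (4 and 2 UMIs) were not measurable to a useful precision. The call for Elovl4 was also lost with a mitochondrial limit of 5% (mean log2 0.76), Krt4+Krt13 thresholds of 100 and 450 (0.68), a class threshold of 10 (0.43) or without the 5% of cells with most UMIs (0.58), and that for Alox15 with a class threshold of 3 (1.66). The overlap with the cornified class was 3 and 2 cells. In the Krt16/S100a8 cells 7 neutrophil markers summed to 0 and 4.27 CPM, with 6 of the 7 at 0, and 8 immune markers to 7.20 and 21.3 CPM, with 5 of the 8 at 0. There 6 macrophage markers summed to 14.4 and 4.27 CPM, with 4 of the 6 at 0, against 1.04 and 1.02 CPM in the remaining high-bin cells. A count of 3 UMIs equals 21.6 and 12.8 CPM in this class.

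Krt16/S100a8 cells were more numerous below the high bin, with 17 and 35 in the middle and 27 and 32 in the low bin, a comparison added after seeing the data. Alox15 passed as higher in them in both bins. In the middle bin it had 732 and 727 CPM against 35.7 and 49.4 CPM (log2 4.36 and 3.88, and 3.78 and 3.63 without its richest cell). In the low bin it had 329 and 552 CPM against 11.2 and 8.98 CPM (log2 4.87 and 5.94, and 4.73 and 5.82 without its richest cell). Elovl4 (129 and 79.2 CPM against 12.1 and 11.2 CPM) and Alox12b (47.8 and 20.97 CPM, from 13 and 9 UMIs, against 1.23 and 1.18 CPM) also passed as higher in the middle bin, and Cers3 (39.6 and 24.8 CPM, from 16 and 9 UMIs, against 14.3 and 14.6 CPM) in the low bin. In library 1, 25 of the 35 Elovl4 UMIs came from 1 cell, and in library 2, 6 of the 9 Alox12b UMIs did. Without the cell richest in each gene, Elovl4 was at 43.5 and 60.5 CPM (log2 1.85 and 2.43), Alox12b at 34.8 and 7.26 CPM (4.83 and 2.63) and Cers3 at 36.7 and 22.4 CPM (1.36 and 0.62). Over the genes measured, 7.16% passed as higher, 17.8% as lower and 25.0% either way in the middle bin, and 8.07%, 23.3% and 31.3% did so in the low bin. The list of cornified markers summed to 7979 and 2728 CPM in the Krt16/S100a8 cells of the middle bin, against 208 and 201 CPM in the whole middle bin, and to 4166 and 2046 CPM in those of the low bin, against 115 and 78.8 CPM in the whole low bin, with Rptn the one of its 7 genes at 0. Median depth was 11365 and 9425 UMIs against 8175 and 6859.5 in the remaining cells of the middle bin, and 13757 and 10422.5 against 6437 and 5373 in the low bin. The 8 basal keratinocyte markers were also higher in the Krt16/S100a8 cells, at 16220 and 15678 CPM against 6036 and 6096 CPM in the whole middle bin. In the low bin they summed to 26540 and 26937 CPM against 15440 and 15484 CPM in the whole bin. The cornified list includes Sprr2a3, which was also high in Alox15-rich cells, as given below. The part of all these markers and of depth in the result was not tested.

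Alox15 was concentrated in few cells. The top 1% of cells ranked by it, 69 and 85 cells, held 59.1% and 55.1% of its UMIs, against 29.2% and 29.6% for Elovl4 and 12.7% and 14.7% for Cers3, each ranked by its own UMIs. The shares of the rarer Alox12b (78.8% and 79.0%) and Aloxe3 (62.6% and 64.0%) cannot be compared with these. Only 148 and 195 cells held any Alox12b UMI and 158 and 214 any of Aloxe3. The top 69 and 85 cells therefore hold a large share however the UMIs are spread. A likeness ranking added after seeing the data used 4 classes of cells (8 points, 2 libraries, 9604 genes compared). They were the low bin, the middle bin, and high-bin cells with little Krt16 and S100a8, with and without cornified transcripts. The low and middle bins kept their Krt16/S100a8 cells, which held 333 of 830 and 511 of 2074 Alox15 UMIs over both libraries. The gene whose log2 level was most like that of Alox15 over these classes was Chil4, a chitinase-like secreted protein (Pearson r 0.99). The points share cells' depth and library, and no test was made. Cells were therefore split by Chil4, after seeing the data. Cells with at least 100 Chil4 UMIs per 10000 were 286 of 6907 (4.14%) and 415 of 8563 (4.85%), and they held 80.9% and 82.8% of all Alox15 UMIs. Chil4 and Chil3 are near-identical neighbours, so reads could be assigned to either, and Chil4 levels are uncertain for that reason.

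Among high-bin cells with little Krt16 and S100a8, those under 10 Chil4 had 16.7 and 17.3 CPM of Alox15 (1156 and 1614 cells), those with 10 to 100 had 154 and 138 CPM (113 and 162 cells), and those with at least 100 had 1001 CPM in both libraries (178 and 267 cells). The level under 10 was above that of the same Chil4 class in the low and middle bins, given next. In low-bin cells with little Krt16 and S100a8 the contrast was 482 and 311 CPM (16 and 15 cells) against 6.27 and 6.44 CPM under 10, and in the middle bin it was 570 and 767 CPM (66 and 94 cells) against 8.14 and 7.76 CPM. Alox15 thus followed Chil4 in all 3 keratin bins. Chil4 had been picked from these same cells for its likeness to Alox15, so the contrast is not independent support for it. At the same high-bin split the other 4 genes were within 1.5-fold in at least 1 library or lower: Elovl4 had 94.5 and 94.6 CPM against 93.4 and 121 CPM under 10, Cers3 28.0 and 27.9 against 30.5 and 32.9, Aloxe3 4.97 and 3.55 against 9.70 and 12.9, and Alox12b 8.40 and 3.30 against 14.8 and 20.99. Cornified-gene cells made up 6.18% and 3.37% of the Chil4-rich cells and 7.70% and 8.18% of those under 10. The part of this share was not tested.

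Krt16/S100a8 cells held both kinds. Of all of them, 26 of 51 and 39 of 80 had at least 100 Chil4, and those held 98.3% and 94.6% of the class's Alox15 UMIs. Chil4-rich Krt16/S100a8 cells had Alox15 at 472 and 797 CPM in the low bin, 1002 and 1078 CPM in the middle bin and 1077 and 1302 CPM in the high bin. Krt16/S100a8 cells under 10 Chil4 had 36.9 and 30.4 CPM (4 and 3 UMIs) in the low bin, 39.4 and 142 CPM (3 and 18 UMIs) in the middle bin, and 0 and 4 UMIs in the high bin. Sprr2a3, 1 of the 7 cornified markers, was at 5116 and 2841 CPM in the Chil4-rich Krt16/S100a8 cells of the middle bin. Those under 10 Chil4 had 1418 and 340 CPM of it. In the low bin Sprr2a3 was at 3777 and 1727 against 222 and 10.1 CPM. With at least 100 Chil4, high-bin Krt16/S100a8 cells (3 and 3) had 1077 and 1302 CPM of Alox15, against 1001 CPM (both libraries) in the remaining cells. In the middle bin (9 and 19 cells) it was 1002 and 1078 against 570 and 767 CPM. In the low bin (14 and 17 cells) it was 472 and 797 against 482 and 311 CPM. Under 10 Chil4 the remaining cells had 8.14 and 7.76 CPM in the middle and 6.27 and 6.44 CPM in the low bin, below the Krt16/S100a8 cells there. In the high bin they had 16.7 and 17.3 CPM, against 0 and 29.8 CPM.

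**Figure D4:**
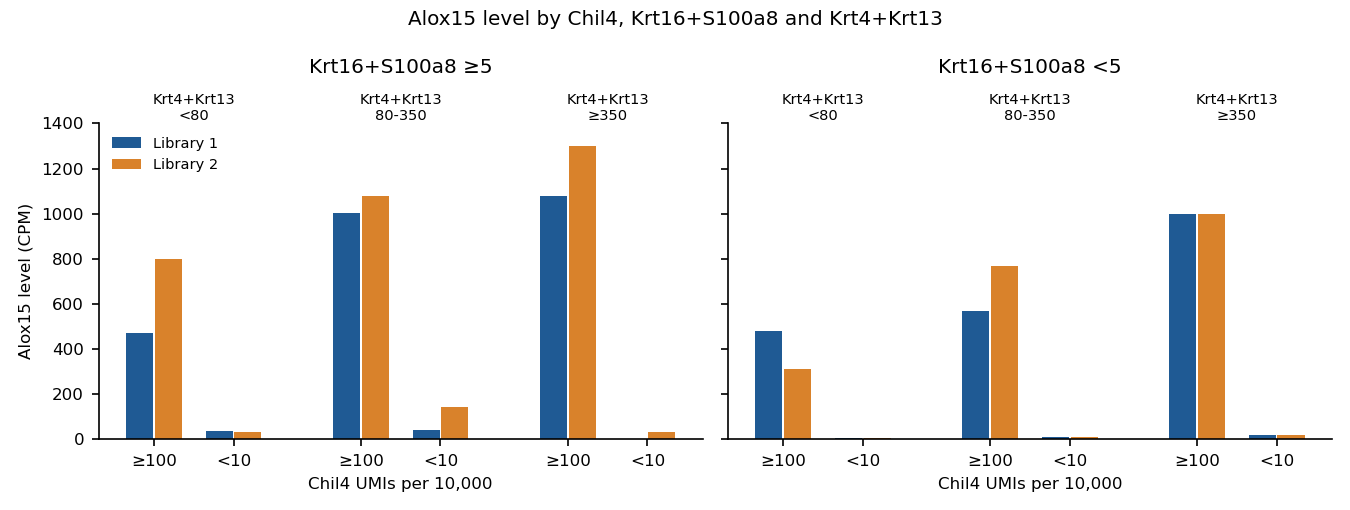
Alox15 level (y axis, CPM, linear from 0) in cells with at least 100 or under 10 Chil4 UMIs per 10000 (x axis, within each Krt4+Krt13 bin), in Krt16/S100a8 cells (left panel) and in the remaining cells (right panel), for library 1 and library 2. Chil4-rich cells reach 311 to 1302 CPM in the 3 bins, and cells under 10 Chil4 lie between 0 and 142 CPM.

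Markers of neutrophils and macrophages were near 0 in high-bin cells. There 7 neutrophil markers summed to 0.173 and 0.289 CPM, with Retnlg, Csf3r, Ngp and Camp at 0, and 6 macrophage markers to 1.12 and 1.05 CPM, with Adgre1 at 0. Immune markers summed to 17.1 and 20.05 CPM in the high bin and to 348 and 858 CPM in the low bin. A list of 6 sebaceous markers stood at 807 and 897 CPM in the high bin against 371 and 440 CPM in the low bin, and at 465 and 531 CPM in cornified-gene cells against 852 and 947 CPM in the remaining high-bin cells. Awat1 and Elovl3 were at 0 in all of these, and the list's part in the results was not tested. High-bin cells rich in Alox15 (at least 5 UMIs per 10000) were also compared with those holding none, after seeing the data and over genes with a mean of 20 CPM or more: 1.75% passed as higher, 2.05% as lower and 3.81% either way, and Elovl4 (log2 -0.07 and -0.45) and Cers3 (-0.27 and -0.16) did not pass. Alox12b (-2.14 and -1.67) and Aloxe3 (-0.97 and -1.76) were more than 1.5-fold lower in both libraries, at a mean under 20 CPM, so they were outside those counts. Cornified-gene cells made up 4.55% and 4.14% of the Alox15-rich cells and 7.66% and 7.73% of those with none. The part of this share was not tested.

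The lipid genes around the 5 were described by lists. Of 32 genes of acylceramide and barrier ceramide synthesis, 24 were measured in the high against the low bin, and 15 passed as higher and 1 as lower, against 8.65% and 37.1% of all genes measured, with a median log2 of 0.80 against -0.42 for all genes. The largest ratios were in Acer1, the alkaline ceramidase of suprabasal skin (139 and 140 CPM in the high bin, against 6.56 and 5.78 in the low bin), Sptlc3, a serine palmitoyltransferase subunit (9.68 and 11.7 against 0.756 and 0.444 CPM), Abca12, the lamellar-granule lipid transporter (15.0 and 13.8 against 1.07 and 1.13 CPM), and Fabp5, the epidermal fatty-acid binding protein (12968 and 12765 against 1660 and 1570 CPM). Asah1, the acid ceramidase, was the one lower (12.7 and 15.5 against 28.2 and 32.6 CPM), named after its values were seen. Of 4 other ceramide synthases measured, none passed as higher and 2 passed as lower, near the 37.1% of all genes, with a median log2 of -0.60 against -0.42. They were Cers2 (15.3 and 16.7 against 39.0 and 38.1 CPM) and Cers6 (13.1 and 11.4 against 20.2 and 19.8 CPM). With median-of-ratios scaling, which was applied to the lists after seeing the data, 20 acylceramide genes passed as higher and none as lower, and of the other ceramide synthases Cers2 alone passed as lower.

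Of 8 other lipoxygenase and eicosanoid genes measured in the same comparison, 4 passed as higher, against 8.65% of all genes, and 3 as lower, near the background of 37.1%, with a median log2 of 0.68 against -0.42. With median-of-ratios scaling 4 passed as higher and 2 as lower. Ephx3, an epoxide hydrolase, was at 83.3 and 92.3 CPM in the high bin against 2.98 and 3.31 CPM in the low bin. Alox12, the platelet-type lipoxygenase, was at 35.8 and 34.2 against 3.62 and 2.87 CPM, and Ptgs1, a cyclooxygenase, at 47.4 and 47.0 against 9.63 and 9.41 CPM. Hpgd, which inactivates prostaglandins, was lower, at 39.3 and 44.0 against 476 and 472 CPM. Of 8 differentiation regulators measured, 7 passed as higher and none as lower, against 8.65% and 37.1% of all genes, with a median log2 of 1.58 against -0.42, led by Grhl1 (61.6 and 62.8 against 8.11 and 7.59 CPM), Grhl3 (76.2 and 75.7 against 10.7 and 9.37 CPM) and Zfp750 (69.9 and 61.7 against 9.59 and 7.92 CPM), all transcription regulators of epidermal differentiation. Grhl3 was also on the list of differentiating markers.

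Between the middle and low bins 5 of 21 acylceramide genes passed as higher and 1 as lower, against 4.08% and 9.88% of all genes, with a median log2 of 0.34 against -0.10. Between the high and middle bins 9 of 24 passed as higher, against 4.40%, with a median log2 of 0.40 against -0.30. In cornified-gene cells 14 of 26 passed as higher and none as lower, against 5.34% and 9.65%, with a median log2 of 0.70 against -0.18 for all genes. Sdr9c7, a dehydrogenase of the same linoleate-oxidation route, was at 17.6 and 25.5 CPM against 1.12 and 1.44 CPM in the remaining cells. Sptlc3 was at 34.5 and 44.8 against 6.45 and 7.18 CPM, and Ugcg, the glucosylceramide synthase, at 19.1 and 15.9 against 5.96 and 6.24 CPM. Of 8 other lipoxygenase and eicosanoid genes measured in the cornified split, 2 passed as higher and 2 as lower, against 5.34% and 9.65% of all genes. Their median log2 was -0.12, near the -0.18 of all genes. Alox12e was lower (5.25 and 1.502 against 8.36 and 8.99 CPM), a call lost with median-of-ratios scaling (log2 -0.50 and -2.38). Alox12 was higher (57.7 and 60.7 against 32.9 and 30.6 CPM). Of 8 differentiation regulators measured, 4 passed as higher and none as lower, with a median log2 of 0.44 against -0.18. Among them Klf4, a barrier transcription factor, was at 260 and 256 against 108 and 103 CPM.

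**Figure D5:**
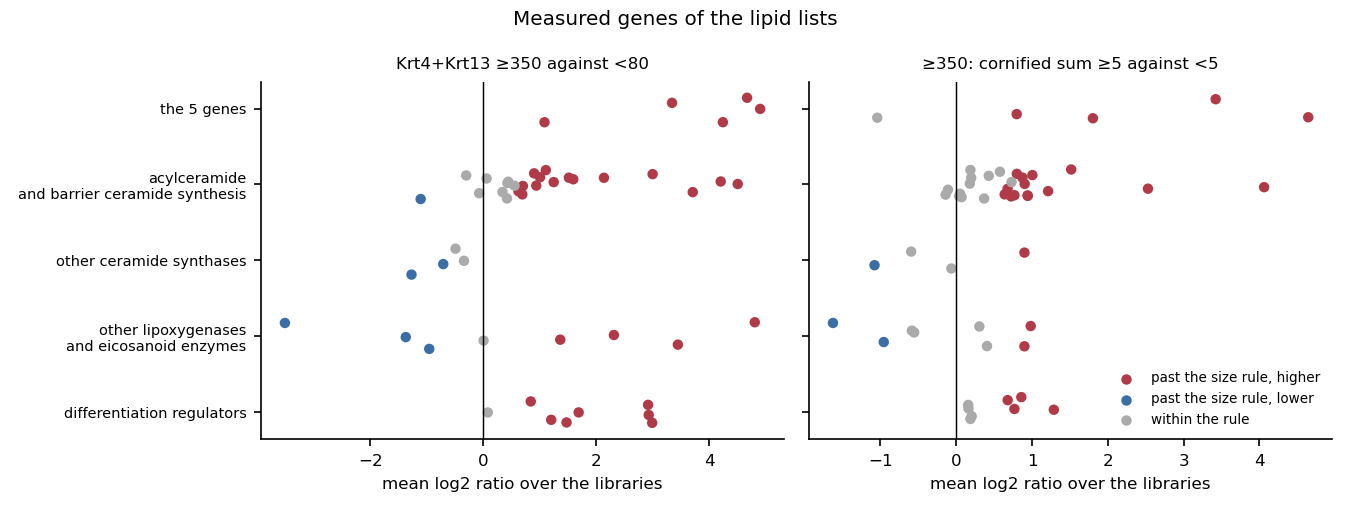
Mean log2 ratio over the libraries (x axis) of the 5 genes and of each measured gene of 4 lists (y axis), in the high against the low Krt4+Krt13 bin (left) and in cornified-gene against remaining high-bin cells (right), coloured by whether the gene passed the 1.5-fold rule. In the left panel 15 of 24 acylceramide genes passed as higher, and in the right panel 14 of 26.

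Across 6 classes of cells in 2 libraries (12 points, 9704 genes compared), the genes most like Elovl4 in log2 level were Cst6, Endou and Sbsn (Pearson r 0.99 each). For Cers3 they were Cyb561 (0.96), Por (0.95) and Decr2 (0.94), for Alox12b Upp1 (0.99), Ly6g6c (0.98) and Thop1 (0.96), for Aloxe3 Plxdc2 (0.97), P4hb (0.94) and Polr3g (0.94), and for Alox15 Flad1 (0.94), Arf1 (0.92) and Rab24 (0.91). These rankings rest on classes of as few as 2 cells, and the points share libraries and depth. A ranking added after seeing the data left out the high-bin classes of Krt16/S100a8 cells (8 points), while the low and middle bins kept theirs. The nearest genes were then different throughout, Tmem45a2, Cldn23 and Nmu for Alox12b and Pla2g16, Nmu and Gdpd3 for Aloxe3. Alox12b and Aloxe3 correlated with each other at 0.99, against 0.68 with the high-bin Krt16/S100a8 classes included. Alox15 correlated with Alox12b at 0.32 and with Aloxe3 at 0.38 over the 8 points.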

How the data were processed

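The deposited values are UMI counts per gene and cell barcode, 1 table for each of the 2 technical replicates. Cell Ranger and the mm10 build are named in the submitters' processing notes. Its version, cell filter and annotation are not given in the sources used here. Library 1 held 67962712 UMIs in 7215 barcodes and library 2 held 73935792 in 9076, with a lowest barcode of 3362 and 3149 UMIs, so empty droplets were not analysed here. Of 27998 gene IDs, 27645 matched GENCODE M21, the source of coordinates.

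UMIs were summed per bin and library and scaled to 1000000 (CPM). Intervals are 95%, exact Poisson for levels, exact conditional binomial for ratios and exact binomial for shares, and cover counting error only. Cells are not replicates and the libraries are technical splits, so a size rule replaced tests: 1.5-fold in both libraries, mean of at least 5 CPM, a sum of 0 set to 3, without the 8 bin genes. Thinning drew 3000 UMIs per cell (seed 1). Immune-marker cells had 8 immune markers summing to at least 20 UMIs per 10000. Cycling cells had 10 cycling markers at 5 or more. Doublets were sought with Scrublet (scanpy 1.11.5), which marked 1 barcode in each library (0.0139% and 0.0110%) and so did not work here. None were removed, and an alternative left out the 5% of cells with most UMIs.

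Named genes are the 5 members, up to 4 examples per list with the largest ratio past the rule, and the 3 genes most like each member by Pearson's r of log2(CPM + 5). The members, lists and rules were chosen with earlier results of these data known. Results were recomputed under 16 other settings and 2 added after seeing the data. Where the cell richest in a gene was left out, it was left out of the first-named class of a comparison only. Scripts ran in Python 3.11.15 with pandas 2.3.3, scipy 1.17.1, numpy 2.4.6 and, for figures, matplotlib 3.10.9.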

Additional observations from a re-analysis of the deposited data

How the results depend on the processing

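The 25 ratios (5 genes in 5 comparisons) kept their direction wherever a call was made, under 16 other settings and 1 added after seeing the data. Of 425 such values, 29 lost a call and 12 gained one. Calls between the high and low Krt4+Krt13 bins numbered 5, and 3 with thinned cells, with a floor of 20 CPM or without the 5% of cells with most UMIs, where Alox12b and Aloxe3 lay under the floor. They numbered 4 with a mean over cells, with thresholds of 60 and 250 and without the cell richest in each gene, where Aloxe3 alone lay under it. Between the high and middle bins they numbered 4, 2 in the first 3 of these settings, 3 with a mean over cells and with thresholds of 60 and 250, and 5 with median-of-ratios scaling. Between the middle and low bins they numbered 3, 5 with no floor and 1 with a floor of 20 CPM. Between the high and low bins the lost calls were those of genes under the floor. There the log2 ratios of Alox12b and Aloxe3 stayed between 3.22 and 5.19 and between 3.404 and 4.758. The call gained with median-of-ratios scaling between the high and middle bins was that of Cers3. Its mean log2 was 0.70 with that scaling against 0.34 without, so the floor did not set that change.

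Without replicate 1 or 2, the calls were 5 and 4, 3 and 3, 4 and 4, 5 and 4, and 3 and 4 in the 5 comparisons. Median-of-ratios scaling changed the balance of calls over all genes in the high against the low bin to 1906 higher and 1496 lower, against 780 and 3349, and in the cornified split to 632 and 363, against 425 and 768. It gave 551 and 607 in the middle against the low bin, against 376 and 910, and 867 and 737 in the high against the middle bin, against 381 and 1840. Counts of all genes called, 4129, 1286, 2221, 1193 and 1307, became 7724, 3483, 4679, 4316 and 6899 with no floor and 1987, 608, 1003, 555 and 491 with a floor of 20 CPM. For the cornified split they were 1965 and 1847 without replicate 1 and 2. For the Krt16/S100a8 split they were 4220 with thinned cells, 2045 with thresholds of 10, 2608 without the 5% of cells with most UMIs, and 3254 and 3576 without replicate 1 and 2. No paired analysis was possible because no test was made: the libraries are technical splits of 1 suspension, and each ratio was already formed within a library. Without the cell richest in Cers3, its ratio in Krt16/S100a8 cells of the high bin was -0.93 and -1.18. Depth limits Alox12b, Aloxe3 and every value from Krt16/S100a8 cells.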

Other observations

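Alox15-rich cells of the high Krt4+Krt13 bin were described by their other genes, in a comparison added after seeing the data, with cells chosen by Alox15 itself and so with Alox15 as no finding. Among high-bin cells with little Krt16 and S100a8, 110 of 1447 and 169 of 2043 had at least 5 Alox15 UMIs per 10000, 1070 and 1539 had none, and 267 and 335 lay between. Of 4334 genes with a mean of at least 20 CPM, 1.75% passed 1.5-fold as higher and 2.05% as lower in the Alox15-rich cells, 3.81% in all. The 12 with the largest ratio included Chil4 (78176 and 73571 CPM against 696 and 932 CPM in cells with no Alox15), Alox12e, the lipoxygenase gene next to Alox15 (47.97 and 44.9 against 2.53 and 2.44 CPM), and 4 small proline-rich genes, of which Sprr2a3 had 1358 and 1211 against 9.51 and 12.7 CPM. The Sprr2a genes are near-identical copies, so the split of reads among them is uncertain. Chil4 had already been picked for its likeness to Alox15 in these data, so its place here is no separate finding.

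The same 12 held B2m, the light chain of MHC class I (1520 and 1579 against 321 and 397 CPM), Isg15, an interferon-induced modifier (131 and 150 against 21.5 and 31.4 CPM), Bst2 (102 and 114 against 19.8 and 23.3 CPM), Psmb8, an immunoproteasome subunit (80.6 and 56.5 against 5.25 and 8.20 CPM), Cxcl14, a chemokine (220 and 209 against 48.6 and 45.2 CPM), and Gsdmc, a gasdermin (762 and 816 against 175 and 196 CPM). The lowest were Glul, glutamine synthetase (9.59 and 9.35 against 58.5 and 55.3 CPM), Sptssb, a small subunit of serine palmitoyltransferase (15.8 and 19.5 against 66.7 and 76.5 CPM), and Ces1d, a carboxylesterase (52.8 and 38.2 against 191 and 198 CPM). Krt6a (2252 and 1632 against 964 and 1019 CPM) and Krt6b (746 and 509 against 219 and 251 CPM), keratins of wounded epithelium, also passed as higher, although cells high in Krt16 and S100a8 had been left out, and their part in these values was not tested. Krt4 did not differ by the rule (39679 and 42126 against 38056 and 40465 CPM). Median depth was 17278 and 14709 UMIs in Alox15-rich cells and 14003.5 and 11441 in cells with none.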
